A study of Mus musculus with 16 samples.

Results

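AP-1 and early growth response genes encode transcription factors whose mRNA is low in many resting cells and is made within minutes of a stimulus. A set of 10 such genes, picked by symbol, was followed in mouse footpad epidermis: the Fos family (Fos, Fosb, Fosl1, Fosl2), the Jun family (Jun, Junb, Jund), Atf3, and the zinc finger genes Egr1 and Egr2. All 10 were found among the 50600 gene identifiers of the count table, and all 10 were among the 22155 genes that had at least 10 counts in total and were tested. The libraries came from epidermal cells of 16 female C57/B6J mice, 4 in each of 4 groups. A purified diet with few ligands of the aryl hydrocarbon receptor (AhR-poor diet, SYNTH in the labels), or its version supplemented with indole-3-carbinol at 200 ppm (I3C diet), was given from 5 wk of age during 3 wk. The footpad was then injected with 50 μl of PBS (vehicle), or with papain, an allergen with protease activity, at 50 μg in the same volume. Cells were taken 6 hr after the injection. No group carried a transgene or a deleted gene, and mice of the same diet shared a cage, so that diet and cage cannot be told apart.

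Fos proteins cannot pair with themselves and bind DNA as dimers with a Jun protein, while Jun proteins also pair with each other. These dimers, named AP-1, bind the sequence TGANTCA in the control regions of genes for matrix proteases, cytokines and keratinocyte differentiation. ATF3 belongs to a related family and often represses its targets, JunD is the Jun protein most abundant in resting cells, and the EGR proteins bind GC-rich sites. Transcription of Fos, Egr1 and Egr2 is switched on through CArG boxes bound by the serum response factor and through sites for CREB and ATF proteins (TGACGT), and that of Jun through a variant of the AP-1 site (TGACATCA). Wounding, proteases, growth factors, ultraviolet light and the handling of tissue are known to induce these genes. The cells had been separated with dispase and DNase at 37 °C before RNA was taken, in all groups, and what part of each level was made in the animal cannot be told from these libraries.

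Stretches just before start sites of Fos, Jun, Atf3 and Egr2 are shown as examples, and no rule picked these genes from the 10. Where a gene had several windows, the stretch with the most matches was taken. For Egr2 its start site lies 2394 bases past the annotated start, and the Egr2 window with a start site 24 bases past it held no match. The start site used for Atf3, at chr1:191183333, lies inside the annotated gene and not at its annotated start. Each line gives the 150 bases before a RefSeq start site in GRCm38.p6, 5′ to 3′ on the strand of the gene, with matches to the searched motifs in capitals. They lie at chr12:85473740-85473889 (plus strand), chr4:95052223-95052372 (minus strand), chr1:191183334-191183483 (minus strand) and chr10:67537719-67537868 (plus strand), and no annotated exon overlaps any of them.
Fos: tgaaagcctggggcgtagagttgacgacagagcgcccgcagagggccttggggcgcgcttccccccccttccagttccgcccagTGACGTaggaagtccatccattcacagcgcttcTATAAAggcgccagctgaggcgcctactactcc
Jun: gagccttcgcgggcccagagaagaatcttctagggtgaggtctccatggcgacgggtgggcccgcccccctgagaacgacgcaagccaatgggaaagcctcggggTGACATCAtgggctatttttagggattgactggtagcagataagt
Atf3: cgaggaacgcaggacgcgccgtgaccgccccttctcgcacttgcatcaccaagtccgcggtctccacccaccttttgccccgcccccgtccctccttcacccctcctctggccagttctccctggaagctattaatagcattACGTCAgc
Egr2: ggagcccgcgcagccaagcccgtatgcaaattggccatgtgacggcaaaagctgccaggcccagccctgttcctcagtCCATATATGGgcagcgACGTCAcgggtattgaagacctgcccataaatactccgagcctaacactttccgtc
The Fos stretch held 1 TGACGT motif and a TATA box (TATAAA). In the Jun stretch the only match was TGACATCA, and in the Atf3 stretch it was a TGACGT motif on the opposite strand, printed as ACGTCA. A CArG box (CCATATATGG) and a TGACGT motif on the opposite strand lay 6 bases apart in the Egr2 stretch. On both strands of 32851 RefSeq windows of 300 bases, from 250 before to 50 after a start site, 7.81% held TGANTCA, 7.51% TGACGT, 3.62% TGACATCA, 1.63% a CArG box, 5.55% the EGR motif GCGNGGGCG and 13.6% TATAAA. RefSeq windows were matched for 8 of the 10 genes, and TGANTCA was found in none of these 8. The EGR motif was found in the windows of Fosb and Fosl2. The start site of the Jund window, at chr8:70697739, lies before the annotated start of the gene. These matches are letters in a window and were not tested for binding.

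The 10 genes lie on 9 chromosomes of GRCm38, as annotated in GENCODE M21. Fos is at chr12:85473890-85477273, Fosb at chr7:19302696-19310051, Fosl1 at chr19:5447547-5455946 and Fosl2 at chr5:32135801-32157842. Jun is at chr4:95049034-95052222, and Junb and Jund share chromosome 8, at chr8:84974484-84978718 and chr8:70698949-70700616. Atf3 is at chr1:191170296-191218039, Egr1 at chr18:34859823-34864984 and Egr2 at chr10:67535475-67542188. Exons of Fosl1 share 1163 bases with Ccdc85b on the opposite strand, those of Jund 877 with Gm11175, those of Jun 232 with Junos and those of Junb 173 with Prdx2. Since the strand setting of the counting is not given in the sources used here, reads of these pairs may not be told apart. The partner genes stood at 13.5 to 31.5 CPM (counts scaled to the depth of the library) for Ccdc85b, 5.96 to 16.6 for Gm11175, 1.70 to 6.81 for Junos and 179 to 236 for Prdx2.

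AP-1 mRNA was abundant in every group, vehicle included. Together the 10 genes held between 1.32% and 3.53% of all counts of a library, and no gene had fewer than 3106 counts in any library. Divided by exonic length, to allow comparison between genes, Fos had the highest mean level of the 10 genes over the 16 libraries (1810 CPM per kb), rank 17 among 22093 genes. Jun followed with 874 CPM per kb (rank 45), Atf3 with 759 (rank 54), Junb with 740 (rank 57) and Fosb with 740 (rank 58). Egr1 stood at 556 CPM per kb (rank 79) and Jund at 532 (rank 85). Fosl1 (123 CPM per kb, rank 330), Egr2 (45.7, rank 979) and Fosl2 (31.5, rank 1559) were lower.

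Library totals ranged from 22500821 to 51844375 counts, replicates differed by more than counting error, and keratinocyte markers were high in all groups (summed Krt5, Krt14 and the other basal markers 21070 to 37273 CPM, suprabasal markers 24785 to 65826 CPM). Markers of other cells were present and differed between groups. The sum of 8 neutrophil markers was 2.50 to 4.29 CPM with vehicle and 48.3 to 76.9 CPM with papain on the I3C diet, and 6.70 to 7.49 CPM with vehicle and 87.5 to 570 CPM with papain on the AhR-poor diet. Ly6g, a defining neutrophil marker, had no count in any library except those of the AhR-poor diet with papain. The sum of 10 dermal fibroblast markers ranged from 256 to 347 CPM (I3C, vehicle), 283 to 315 (I3C, papain), 313 to 408 (AhR-poor, vehicle) and 591 to 963 (AhR-poor, papain). Sparc and Thy1 had the most counts of these markers and weigh most in the sum. By the rule given below, 7 of the 10 were called higher on the AhR-poor diet with vehicle, against 1.59% of all genes. With papain 7 were called higher, against 7.15%. The median log2 differences of the 10 markers were 3.06 and 6.21. The 8 endothelial markers summed to 0.948 to 3.52 CPM with vehicle on the I3C diet and to 14.5 to 38.4 CPM on the AhR-poor diet. In such bulk libraries, fewer cells of a type and less RNA per cell cannot be told apart.

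A pair of vehicle libraries stood apart from their groups in the AP-1 and EGR genes. T108 (I3C diet) lay above its group mean for 10 of 10 genes, by 0.62 on average on the log2 scale, and T100 (AhR-poor diet) for 10 of 10 genes, by 0.39. T108 was the highest of its group for all genes but Jund, where T111 was higher, and T100 for all but Fosl2, where T103 was higher. The same libraries were raised in a list of 30 other immediate early genes, by 0.64 and 0.39 on average over those with a mean of at least 1 CPM. In 11 heat shock genes they were raised by 0.39 and 0.10. At the other end, T101 (AhR-poor diet, vehicle) lay below its group mean for 10 of 10 genes, by 0.34 on average. Results are given with all libraries and, as a choice made after the values were seen, without T108 and T100.

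**Figure D1:**
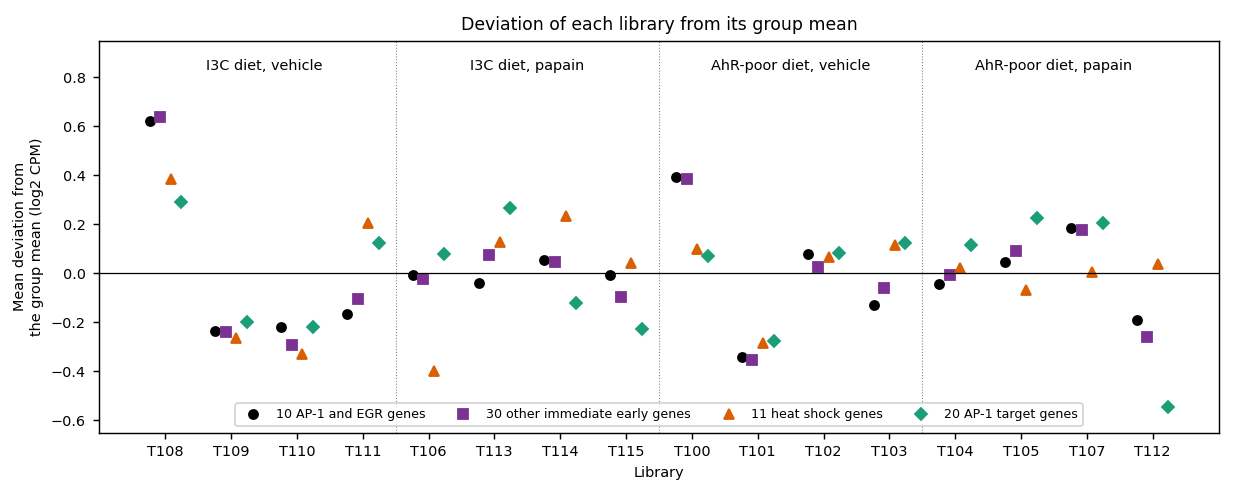
Mean deviation of each library (x axis) from the mean of its group, in log2 CPM (y axis), for the 10 AP-1 and EGR genes and lists of 30 other immediate early genes, 11 heat shock genes and 20 AP-1 target genes. Genes of these lists below 1 CPM on average were left out. The AP-1 and EGR genes and the other immediate early genes lie highest in T108 (0.62 and 0.64) and T100 (0.39 and 0.39).

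The spread between mice depended on the group. In the vehicle groups the median SD of the 10 genes was 0.41 (I3C) and 0.33 (AhR-poor) in log2 CPM, against 0.14 and 0.13 for the 2072 genes with at least 100 CPM on average. After papain it was 0.07 on the I3C diet, against 0.09 for those genes, and 0.15 on the AhR-poor diet, against 0.09. The 4 papain libraries of the I3C diet gave nearly equal values for Atf3 (1299 to 1367 CPM) and Fosb (4142 to 4292 CPM). The difference in spread between vehicle and papain is a description and was not tested.

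Papain was compared with vehicle on each diet, to learn whether the allergen leaves these genes higher or lower 6 hr later. None of the 10 genes rose on either diet. All 10 estimates were below 0 on both diets, and their medians were -0.36 (AhR-poor) and -0.76 (I3C) on the log2 scale, while the medians of all genes tested were -0.0044 and -0.036. A gene was called when the Benjamini-Hochberg adjusted p of edgeR's quasi-likelihood test, over all genes tested, was below 0.01 and the log2 fold change above 1 or below -1. By this rule 0 of 10 genes was called on the AhR-poor diet, where 6.04% of all genes were called higher and 2.42% lower, and 0 of 10 on the I3C diet, where 3.69% were called higher and 5.29% lower. At an unadjusted p below 0.05 the same test gave 5 genes on the AhR-poor diet and 9 on the I3C diet, all lower, against 20.3% and 22.9% of all genes lower. Without T108 and T100 it gave 3 and 8, all lower, against 19.8% and 22.6% of all genes lower. Passing the adjusted p alone, with no minimum fold change, was seen for 1 gene (Fos) on the AhR-poor diet, against 10.1% of all genes lower, and for 5 (Fos, Jun, Junb, Jund, Egr1) on the I3C diet, against 12.9%. Without T108 and T100 the counts past the adjusted p were 2 (Fos, Egr1) and 6 (the same 5 and Egr2), and the medians were -0.21 and -0.58. The share of all genes past the adjusted p in that fit is not given here.

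Fos, the founding member of its family, had the smallest SE of the 10 genes on both diets. With vehicle on the I3C diet, its level was 7703, 5009, 5438 and 5149 CPM in T108, T109, T110 and T111, and with papain 3162, 3140, 3350 and 3286 CPM in T106, T113, T114 and T115. On the AhR-poor diet it was 5810, 3945, 5196 and 4489 CPM with vehicle in T100, T101, T102 and T103, and 2974, 3254, 3310 and 2884 CPM with papain in T104, T105, T107 and T112. In both diets every papain library lay below every vehicle library. The log2 fold change was -0.65 (SE 0.13, edgeR adjusted p = 6.09e-04) on the AhR-poor diet and -0.85 (SE 0.13, adjusted p = 3.32e-05) on the I3C diet, and without T108 and T100 it was -0.54 and -0.70. The order of libraries is the same for the genes that follow.

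Fosb, the Fos protein with strong transactivating power, did not pass the adjusted p on either diet. Its levels on the I3C diet were 9391, 5055, 5724 and 4445 CPM with vehicle and 4142, 4184, 4192 and 4292 CPM with papain, and all papain values lay below the vehicle values. On the AhR-poor diet they were 5611, 3601, 4739 and 4185 CPM with vehicle and 3177, 3946, 4214 and 2973 CPM with papain, which overlap. The estimates were -0.34 (SE 0.19, edgeR adjusted p = 0.201) on the AhR-poor diet and -0.55 (SE 0.19, adjusted p = 0.0372) on the I3C diet.

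Fosl1 and Fosl2 encode the Fra proteins, which lack the transactivation domain of Fos and appear later after a stimulus. Fosl1 stood at 686, 271, 228 and 242 CPM with vehicle on the I3C diet and at 203, 231, 240 and 223 CPM with papain. T108, T109 and T111 lay above every papain library, T108 by far the most, and T110 lay within the papain range. On the AhR-poor diet it stood at 294, 152, 203 and 228 CPM with vehicle and at 168, 218, 258 and 157 CPM with papain. Its estimate on the AhR-poor diet was -0.13 (95% interval -0.82 to 0.56) and turned to 0.05 without T108 and T100, while on the I3C diet it was -0.67 (-1.36 to 0.02, edgeR adjusted p = 0.129) and -0.15 without them. Fosl2 was 476, 332, 312 and 272 CPM with vehicle and 267, 247, 278 and 269 CPM with papain on the I3C diet, and 330, 292, 296 and 336 CPM against 281, 336, 321 and 231 CPM on the AhR-poor diet. The groups overlapped for both genes on both diets, and Fosl2 gave -0.39 (SE 0.14, adjusted p = 0.0360) on the I3C diet and -0.10 (SE 0.14, adjusted p = 0.630) on the AhR-poor diet.

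The Jun family passed the adjusted p on the I3C diet and not on the AhR-poor diet, and the difference between the diets did not pass for any of its genes (interaction adjusted p from edgeR 0.706 for Jun, 0.401 for Junb and 0.259 for Jund). Jun levels on the I3C diet were 5032, 3033, 3242 and 3353 CPM with vehicle and 2102, 2248, 2364 and 2335 CPM with papain, with no overlap. On the AhR-poor diet the levels were 3920, 2380, 3223 and 2630 CPM with vehicle and 2128, 2182, 2416 and 1986 CPM with papain, where the papain library T107 passed the lowest vehicle library. The log2 fold change of Jun was -0.70 (SE 0.15, edgeR adjusted p = 0.00164) on the I3C diet and -0.48 (SE 0.15, adjusted p = 0.0226) on the AhR-poor diet.

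Junb, which often restrains the activity of Jun, read 3059, 1757, 1912 and 2262 CPM with vehicle and 1238, 1164, 1371 and 1251 CPM with papain on the I3C diet. On the AhR-poor diet it read 2409, 1414, 2058 and 1595 CPM with vehicle and 1406, 1453, 1584 and 1295 CPM with papain. The first pair of groups was fully apart and the second overlapped, with log2 fold changes of -0.84 (SE 0.17, edgeR adjusted p = 7.02e-04) and -0.38 (SE 0.17, adjusted p = 0.0886). Jund read 1333, 922, 1003 and 1379 CPM with vehicle and 684, 598, 721 and 662 CPM with papain on the I3C diet. The AhR-poor libraries read 1134, 787, 1043 and 839 CPM with vehicle and 727, 769, 831 and 759 CPM with papain. Its log2 fold change was -0.80 (SE 0.13, adjusted p = 7.49e-05) on the I3C diet, with no overlap, and -0.30 (SE 0.13, adjusted p = 0.0807) on the AhR-poor diet, with overlap.

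Atf3, a stress gene of the ATF family, stood at 3513, 1686, 1716 and 1828 CPM with vehicle and at 1299, 1367, 1336 and 1316 CPM with papain on the I3C diet. The AhR-poor values were 2464, 1245, 1811 and 1242 CPM with vehicle and 1296, 1351, 1494 and 1189 CPM with papain. The I3C groups did not overlap and the AhR-poor groups did, with log2 fold changes of -0.72 (SE 0.24, edgeR adjusted p = 0.0308) and -0.34 (SE 0.24, adjusted p = 0.309). Without T108 and T100 these were -0.40 (adjusted p = 0.0117) and -0.10.

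Egr1 was at 5721, 2970, 3036 and 2856 CPM with vehicle and at 1841, 1846, 1972 and 1930 CPM with papain on the I3C diet. The AhR-poor levels were 3556, 2022, 2763 and 2494 CPM with vehicle and 1738, 1723, 1960 and 1483 CPM with papain. No papain value reached a vehicle value on either diet. The log2 fold change was -0.94 (SE 0.20, edgeR adjusted p = 0.00171) on the I3C diet and -0.65 (SE 0.20, adjusted p = 0.0215) on the AhR-poor diet, and without T108 and T100 it was -0.65 (adjusted p = 1.02e-04) and -0.48 (adjusted p = 0.00162).

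Egr2 had the lowest estimate of the 10 genes on the I3C diet. Its levels on the I3C diet were 356, 164, 140 and 178 CPM with vehicle and 123, 99.6, 100 and 89.2 CPM with papain, with no overlap. The AhR-poor levels were 274, 118, 183 and 140 CPM with vehicle and 149, 112.6, 150 and 110 CPM with papain, which overlap. The log2 fold change was -1.02 (SE 0.30, edgeR adjusted p = 0.0157) on the I3C diet, just past the minimum fold change but not the adjusted p, and -0.45 (SE 0.30, adjusted p = 0.276) on the AhR-poor diet.

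Papain groups lay wholly below vehicle groups for 2 of 10 genes on the AhR-poor diet (Fos, Egr1), against 16% of all genes, and for 8 of 10 on the I3C diet (all but Fosl1 and Fosl2), against 17.3%. For each of these the two-sided exact permutation test gave p = 0.0286, the smallest that 4 libraries against 4 allow, and 0.104 after adjustment over the 40 tests of the 10 genes, so that none passed. The 2 responses used separate vehicle groups.

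**Figure D2:**
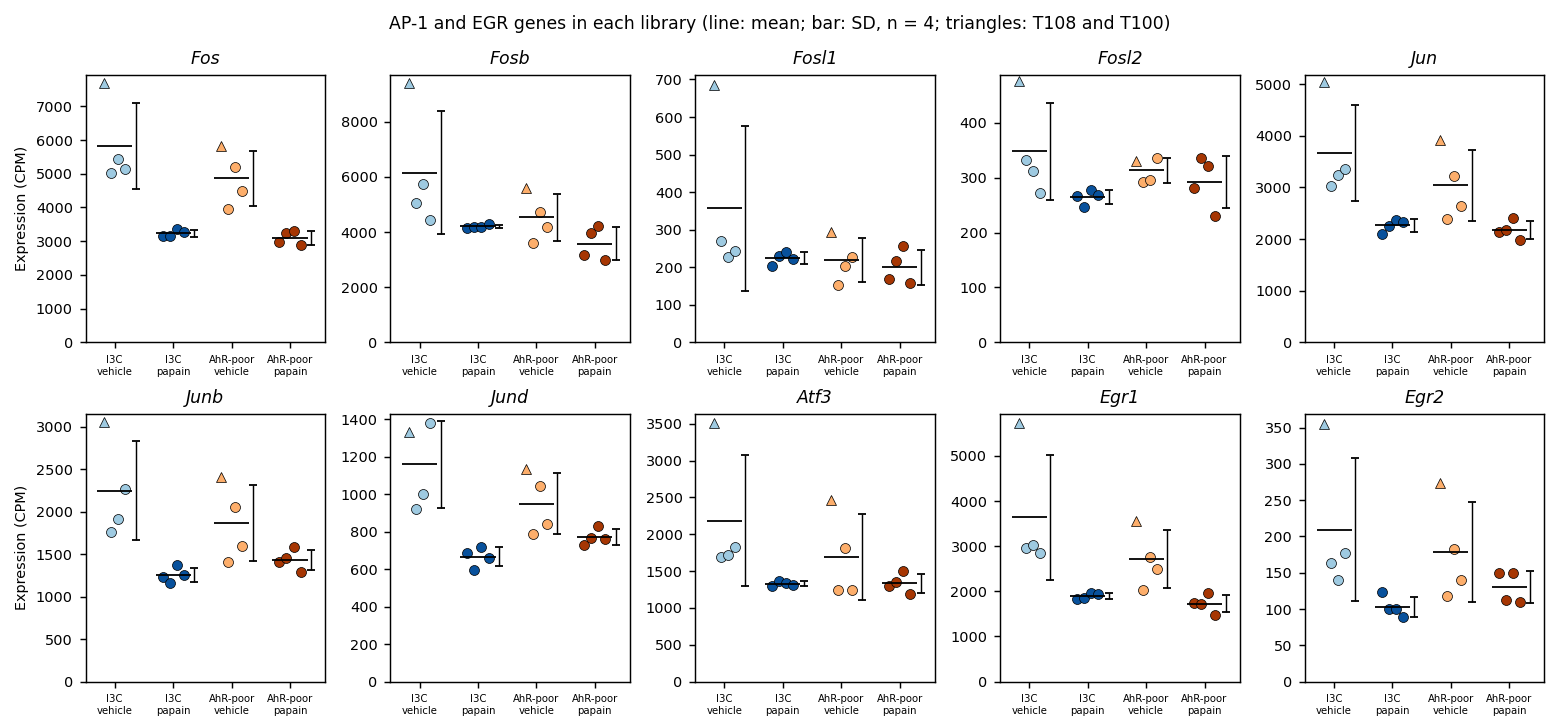
Expression of each gene in CPM (y axis, from 0) in the 16 libraries by diet and treatment. Points are libraries, lines are means and bars are SD (n = 4), and triangles mark T108 and T100, which raise the vehicle means; for Fos and Egr1 all papain points lie below all vehicle points on both diets.

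The diets were then compared within each treatment, the effect of the AhR ligand source on these genes being the question. With vehicle, 0 of 10 genes was called, against 1.59% of all genes, and the lowest edgeR adjusted p was 0.352 (Fosb). All 10 estimates were below 0, that is lower on the AhR-poor diet, from -0.70 (Fosl1) to -0.15 (Fosl2) with a median of -0.28, and the median of all genes was -0.01. In the same comparison 11 of 11 heat shock genes, which tissue handling also induces, had estimates below 0, with a median of -0.75 and none called, and their part in the AP-1 and EGR values was not tested. At an unadjusted p below 0.05, 3 genes were lower (Fosb, Fosl1, Jund), against 3.54% of all genes, and for 0 of 10 did the AhR-poor libraries lie wholly below the I3C libraries, against 1.67%. The 95% interval ran from -0.53 to 0.0055 for Fos, from -0.86 to 0.0022 for Egr1 and from -0.59 to 0.05 for Jun. Without T108 and T100, 6 genes were lower at an unadjusted p below 0.05 (Fos, Fosb, Jun, Jund, Atf3, Egr1), against 2.45% of all genes, and the lowest edgeR adjusted p was 0.354 (Egr1). The median was then -0.27, the estimate of Fosl1 went from -0.70 to -0.36, that of Fosl2 was -0.00052, and the median of the heat shock genes was -0.58. The size of the estimates depended on single libraries. When 1 library was left out, they ran from -0.361 to -0.0974 for Fos and from -0.42 to -0.0793 for Jun. For Atf3 they ran from -0.6103 to -0.0448. Fosl2 (0.0365) and Egr2 (0.1534) turned positive without T108 alone, and the other estimates stayed below 0.

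With papain, 0 of 10 genes was called between diets, against 7.15% of all genes called as higher with the AhR-poor diet and 0.0993% as lower, and the lowest edgeR adjusted p was 0.281 (Jund). At an unadjusted p below 0.05 no gene passed, against 14.5% of all genes lower and 17.5% higher. Without T108 and T100 only Egr2 passed, as higher (edgeR adjusted p = 0.133), against 15.1% of all genes lower and 18.1% higher. Estimates were below 0 for 5 genes (Fos, Fosb, Fosl1, Jun, Egr1) and above 0 for 5 (Fosl2, Junb, Jund, Atf3, Egr2), from -0.23 (Fosb) to 0.34 (Egr2). Scaling by library size alone turned Fos to 0.05 and Jun to 0.05. Only Jund had groups that did not overlap, with 727 to 831 CPM on the AhR-poor diet and 598 to 721 CPM on the I3C diet, against 12.5% of all genes higher. Its log2 difference was 0.21 (SE 0.13), and the exact permutation p was 0.0286, or 0.104 adjusted.

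The interaction asked whether the papain response differed between diets. No gene of the 10 was called, against 0.0181% of all genes. The estimates, the AhR-poor response minus the I3C response, were all above 0 with a median of 0.33, and the median of all genes was 0.03. They were largest for Egr2 (0.57, 95% interval -0.33 to 1.47), Fosl1 (0.54, -0.44 to 1.52), Jund (0.50, 0.12 to 0.88) and Junb (0.46, -0.04 to 0.95). Jund had the lowest p (0.0134 by the edgeR quasi-likelihood test, 0.259 adjusted) and was the only one of the 10 below 0.05 before adjustment, against 7.41% of all genes higher. Without T108 and T100 the estimate of Jund was 0.54 (adjusted p = 0.159) and that of Junb 0.44 (adjusted p = 0.218), so that both were below 0.05 before adjustment, against 8.25% of all genes higher. The estimate of Egr2 was then 0.49, that of Fosl1 0.20 and that of Fosb 0.07 (0.21 with all libraries), and the median of the 10 genes was 0.20. When 1 library was left out, the estimates ran from 0.0387 to 0.3091 for Fos and from 0.0246 to 0.3725 for Jun. They ran from 0.0094 to 0.718 for Fosl1 and from 0.407 to 0.6098 for Jund. Without T108 alone, Fosb (-0.0695) and Egr1 (-0.0112) were below 0. A smaller response on the AhR-poor diet was not shown for any of the 10 genes.

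**Figure D3:**
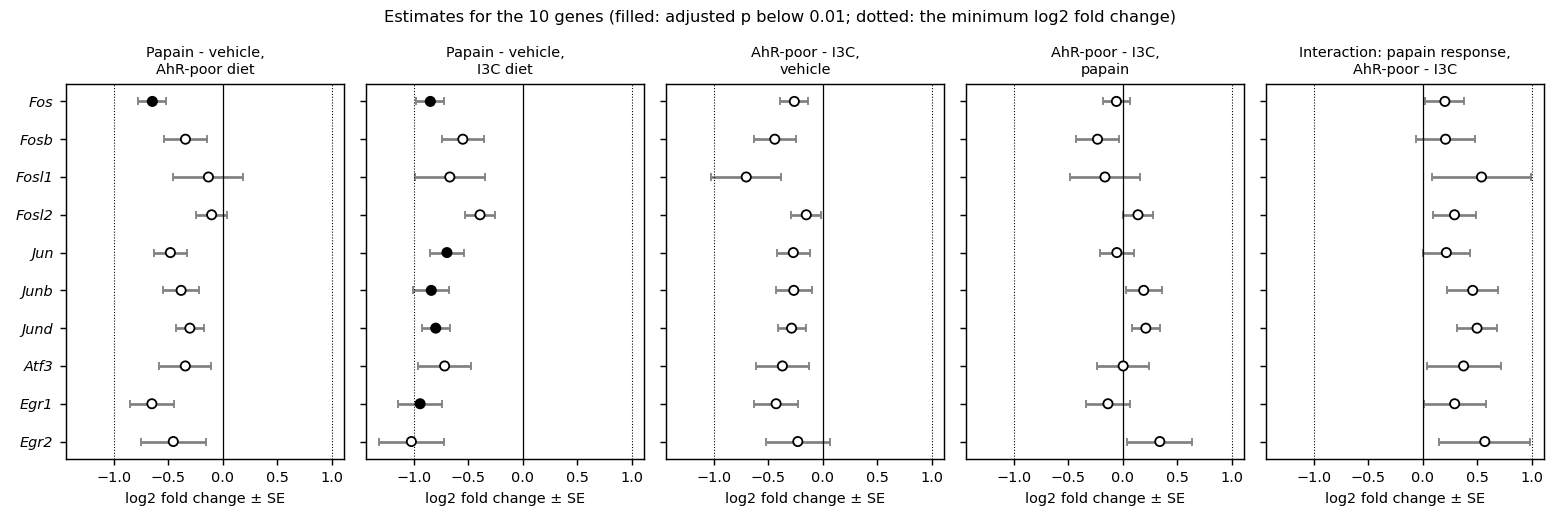
Log2 fold change (x axis, points) with its SE (bars) for the 10 genes in the papain comparisons, the diet comparisons and the interaction. Filled points have an adjusted p below 0.01 and dotted lines mark the minimum log2 fold change; all papain points lie below 0, and filled ones number 1 on the AhR-poor diet and 5 on the I3C diet.

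Levels ordered by group mean placed the I3C vehicle group first for all 10 genes with all libraries. Without T108 the AhR-poor vehicle group was first for Fosl2 (313 against 305 CPM) and Egr2 (179 against 160 CPM), and without T108 and T100 for Fosl2 alone. For Fos the order was I3C vehicle (5825 CPM), AhR-poor vehicle (4860), I3C papain (3235) and AhR-poor papain (3105), and only the step from AhR-poor vehicle to I3C papain was free of overlap. Jund ran from I3C vehicle (1159 CPM) through AhR-poor vehicle (950) and AhR-poor papain (771.3) to I3C papain (666), with the last step free of overlap. Fosl1 had a group order of 357, 224, 219 and 200 CPM in which every neighbouring pair overlapped.

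The make-up of each family was followed as the share of each gene in its summed CPM per kb. Fos held 70.5% ± 0.81 (SD, n = 4) of the Fos family with vehicle and 65.5% ± 2.45 with papain on the AhR-poor diet, with no overlap (69.6% to 71.3% and 62.8% to 68.0%). On the I3C diet it held 68.1% ± 3.48 and 62.9% ± 0.513, which overlap because the vehicle library T108 stood at 63.4%. As shares of counts, not divided by length, these I3C groups did not overlap (42.2% to 50.9% and 40.2% to 41.6%). The share of Fosb was 24.7% ± 0.414 with vehicle and 28.2% ± 1.78 with papain on the AhR-poor diet, and 26.4% ± 2.41 and 30.8% ± 0.589 on the I3C diet, without overlap on either. Fosl2 likewise took a larger share with papain, 1.12% with vehicle against 1.49% with papain on the AhR-poor diet and 0.983% against 1.25% on the I3C diet. The larger shares came with lower levels, since Fos fell more. With papain, mean CPM changed by -21.1% (AhR-poor) and -31.7% (I3C) for Fosb and by -6.79% and -23.8% for Fosl2. For Fos the changes were -36.1% and -44.5%. The shares of a family sum to the whole, so they are not independent of each other.

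Within the Jun family, the shares of Jun and Junb after papain were compared between diets. The Jun share was 42.9% ± 1.78 on the I3C diet and 38.6% ± 0.467 on the AhR-poor diet, and the Junb share 33.0% ± 0.712 and 35.2% ± 0.625, in both cases without overlap. With vehicle, the Jun shares were 40.7% ± 2.67 and 40.8% ± 0.672 and overlapped. Of 28 shares compared, 11 had groups that did not overlap (exact permutation p = 0.0286 for each), and the adjusted p of these was 0.0727, so that none passed 0.05.

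**Figure D4:**
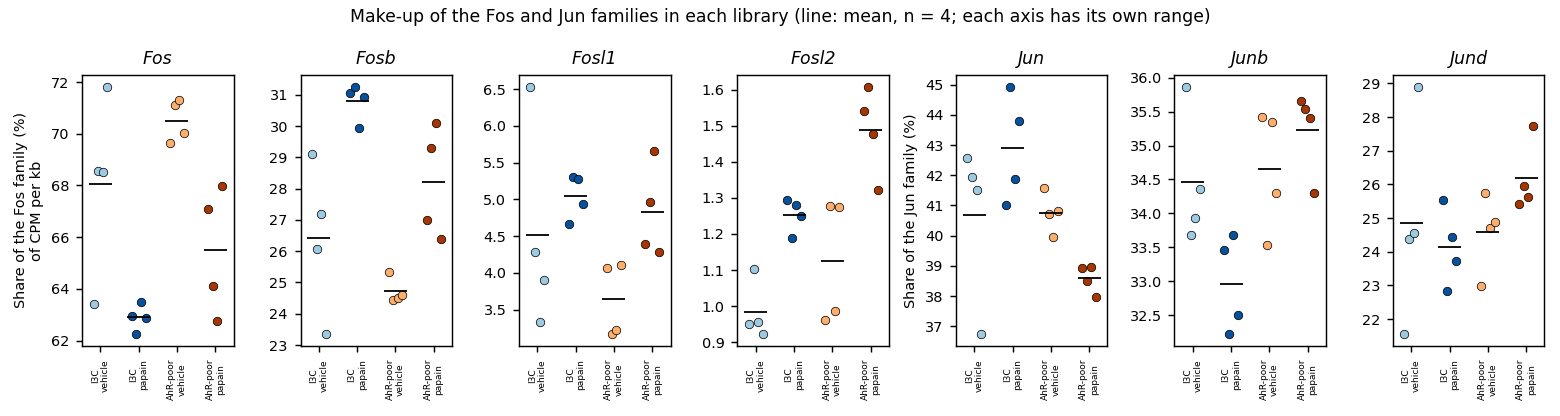
Share of each gene in the summed CPM per kb of its family, in percent (y axis, a separate range for each gene), in the 16 libraries by diet and treatment; lines are means (n = 4). The Fosb share lies higher with papain than with vehicle on both diets, and after papain the Jun share is lower and the Junb share higher on the AhR-poor diet than on the I3C diet.

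The 10 genes moved together from mouse to mouse. Taking each library as its deviation from the group mean in log2 CPM, the 45 pairs of genes had Pearson correlations between 0.23 and 0.98, with a median of 0.88 over 16 libraries. The median was 0.63, and the range -0.17 to 0.91, without T108 and T100. These correlations describe libraries that share depth, handling and scaling, and carry no test. Among the 13026 genes with at least 1 CPM on average, the genes most like each of the 10 were often other members or other immediate early genes. Jun and Atf3 were closest to each other (0.98), and Fos was closest to Jun (0.97), Egr1 (0.97) and Ccnl1 (0.96). Fosl1 was closest to Mafk (0.98), Zbtb2 (0.98) and Slc25a25 (0.97), and Egr1 to Zbtb2 (0.98), Slc25a25 (0.98) and Mafk (0.98). Fosb was closest to Ccnl1, Slc25a25 and Fos (0.95 each). Junb was nearest to Jun, Ppp1r15a and Ier2 (0.96 each). Atf3 had next to Jun the genes Arid5a (0.96) and Nr4a1 (0.96). Egr2 was nearest to Rhob (0.97), Dusp10 (0.95) and Btg2 (0.95), and Fosl2 to Kdm6b (0.97), Epc1 (0.97) and Spty2d1 (0.96). Jund was nearest to Ier2 (0.96), Ube2b (0.94) and Gm11175 (0.92), the last of which overlaps its exon on the opposite strand. All these nearest genes are from the 16 libraries and were not sought again without T108 and T100. Without T108 and T100 the correlation of Jun was 0.913 with Fos and 0.905 with Atf3.

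Of 30 other immediate early genes, 0 were called after papain on the AhR-poor diet, with 18 estimates below 0 and 12 above (median log2 fold change -0.21). On the I3C diet 8 fell and none rose, with 25 estimates below 0 and 5 above (median -0.55). The interaction called none of the 30, so a difference between the diets was not shown. Klf2, a factor of quiescent endothelium and T cells, fell from 114.5 ± 38.5 to 34.5 ± 13.6 CPM (SD, n = 4; log2 fold change -1.73, SE 0.40, edgeR adjusted p = 0.00352). Ccn2, a matrix-associated growth factor gene, fell from 12.8 ± 3.31 to 3.93 ± 1.73 CPM (-1.70, SE 0.32, adjusted p = 6.58e-04). Btg2, an antiproliferative gene, fell from 1250 ± 560 to 525 ± 83.2 CPM (-1.25, SE 0.32, adjusted p = 0.00635). The other genes that fell were Gadd45b, Nr4a1, Ccn1, Myc and Zfp36. Without T108 and T100, 3 of the 8 were still called lower (Ccn2, Gadd45b, Klf2) and Phlda1 was called higher on both diets (log2 fold change 1.49 on the AhR-poor diet and 1.35 on the I3C diet), and without T108 alone 2 were called lower. Between diets after papain, Ccn2 was higher on the AhR-poor diet (24.1 ± 6.58 against 3.93 ± 1.73 CPM, log2 difference 2.61, SE 0.32, adjusted p = 5.01e-05), where the summed fibroblast markers were also higher; their part in this difference was not tested.

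Partners, repressors and upstream kinases mostly did not pass. Of 20 other AP-1 and small Maf genes, 2 rose and none fell after papain on the AhR-poor diet, 1 fell and none rose on the I3C diet, and with papain 2 were higher on the AhR-poor diet. Jdp2, which pairs with Jun and represses AP-1 sites, rose from 3.49 ± 0.457 to 15.9 ± 7.98 CPM on the AhR-poor diet (log2 fold change 2.19, SE 0.29, edgeR adjusted p = 2.41e-05) and was higher there than on the I3C diet after papain (15.9 against 4.25 ± 0.654 CPM). Batf rose as well but stood below 1 CPM on average. Mafa, a large Maf factor, fell on the I3C diet from 9.27 ± 0.765 to 4.43 ± 0.512 CPM. Among 22 upstream genes, Rps6ka5, the histone kinase MSK1 that acts at immediate early genes, fell on both diets, from 7.52 ± 0.865 to 3.62 ± 0.224 CPM (AhR-poor, log2 fold change -1.05, SE 0.13) and from 7.66 ± 0.638 to 2.71 ± 0.341 CPM (I3C, -1.50, SE 0.13). Map2k6, a kinase that activates p38, fell on the I3C diet from 13.4 ± 2.04 to 5.69 ± 1.24 CPM. None of the 22 was called higher, while 3 on the AhR-poor diet and 5 on the I3C diet passed the adjusted p as higher without reaching the minimum fold change. Map2k1, the kinase MEK1, was among them on both diets (log2 fold change 0.86, SE 0.08, and 0.9999, SE 0.08), and on the I3C diet it was called without T108 and T100 (1.01). Of 9 repressors and cofactors, Jdp2 alone was called, and of 11 heat shock genes Dnajb1 alone, which fell on the I3C diet from 810 ± 309 to 398 ± 47.3 CPM and was not called without T108 and T100. Between diets with vehicle, and in the interaction, none of these genes, of the 30 other immediate early genes or of the AP-1 targets was called. With papain, no upstream gene or heat shock gene was called between diets.

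Of 20 genes known as AP-1 targets, 12 rose and none fell after papain on the AhR-poor diet (median log2 fold change 1.46), and 9 rose and none fell on the I3C diet (median 0.94). Estimates of 4 and 7 of the 20 were below 0. With papain, 7 were higher and none lower on the AhR-poor diet than on the I3C diet, and with vehicle none was called in either direction. Without T108 and T100 the counts were 11, 8, 7 and 0. Mmp13, a collagenase, rose from 2.05 ± 0.372 to 32.0 ± 26.1 CPM on the AhR-poor diet (log2 fold change 3.96, SE 0.76, edgeR adjusted p = 0.00124) and from 5.44 ± 5.47 to 59.3 ± 33.9 CPM on the I3C diet (3.45, SE 0.71, adjusted p = 0.00179). Timp1, an inhibitor of matrix proteases, rose from 0.365 ± 0.0756 to 43.1 ± 17.5 CPM on the AhR-poor diet (6.86, SE 0.32, adjusted p = 6.10e-10). Il1b, a cytokine of the early inflammatory response, rose from 2.57 ± 0.557 to 233 ± 152 CPM (6.50, SE 0.74, adjusted p = 2.01e-05) on that diet. Many of these genes are also expressed by leukocytes and fibroblasts. Of the markers of those cells, 8 of 8 for neutrophils, 5 of 8 for monocytes and macrophages and 8 of 10 for fibroblasts rose on the AhR-poor diet, and 3, 0 and 0 on the I3C diet, and their part in the target genes was not tested.

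**Figure D5:**
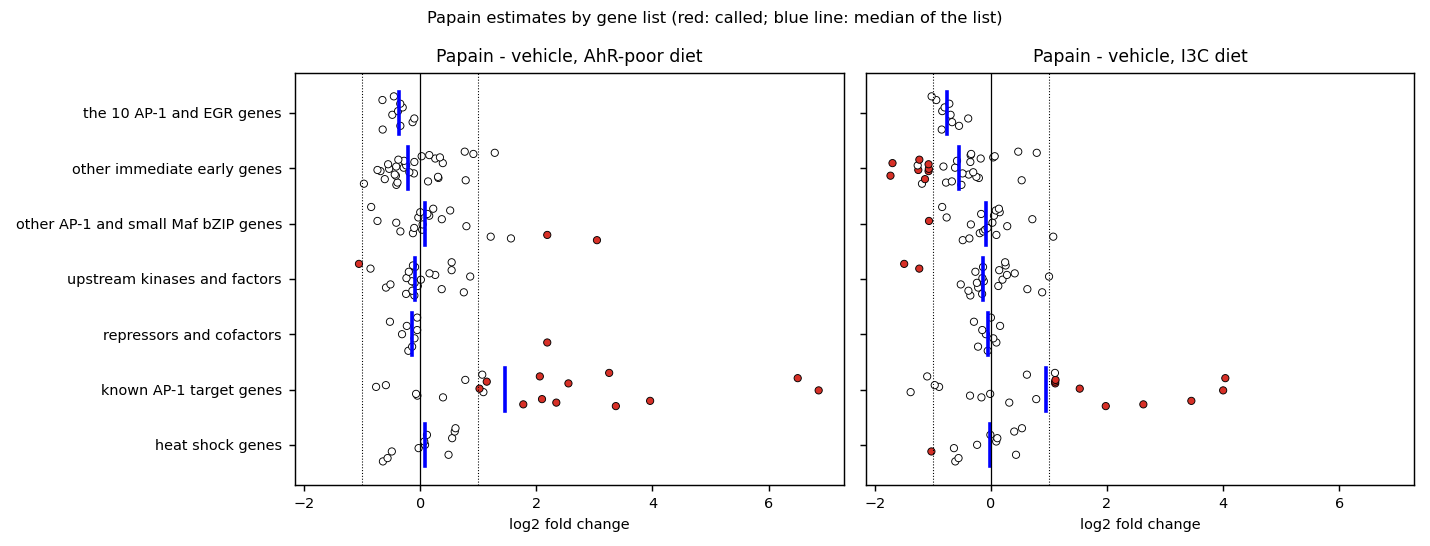
Log2 fold change after papain (x axis) of each gene of 7 lists on the AhR-poor diet (left) and the I3C diet (right); red points were called, blue lines are medians and dotted lines mark the minimum log2 fold change. The medians of the 10 AP-1 and EGR genes are -0.36 and -0.76, and those of the AP-1 target genes 1.46 and 0.94.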

How the data were processed

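Epidermal cells of the footpad were taken from 16 mice, 4 for each combination of diet and injection, and each library was assigned to its group from its own label. Libraries were prepared with a stranded mRNA kit, and the submitters' processing notes name FastQC, STAR, DESeq2 and the mm10 build. The authors deposited raw read counts per gene, without normalization, and the counting tool, annotation release and strand setting are not given in the sources used here. Totals of 22500821 to 51844375 counts limit counting error, and the tests set group differences against the spread between mice. Mice of the same diet shared a cage, so p-values between diets do not cover differences between cages. Replicate codes differ between the groups, and neither cage nor sequencing unit could enter a model.

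The 10 genes and all other lists were chosen with earlier results of these data known. Gene identifiers were matched to GENCODE M21 for 50376 of 50600 genes. The 22155 genes whose counts summed to 10 or more were scaled with TMM factors and fitted in edgeR 4.0.16 (R 4.3.3) with a mean for each group and the robust quasi-likelihood F test. Calls required a p below 0.01 after Benjamini-Hochberg adjustment over all these genes, together with a log2 fold change of more than 1 in size. CPM were computed by edgeR with these factors, CPM per kb are divided by exonic length, and 95% intervals use the t quantile at each gene's degrees of freedom in the quasi-likelihood test. Two-sided exact permutation tests compared log2(CPM + 0.5), or family shares, of 4 libraries with 4 (SciPy 1.17.1).

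All 10 AP-1 and EGR genes are named in every comparison. From other lists, counts are given, with up to 3 called genes per direction with at least 1 CPM on average; the remaining genes that fell on the I3C diet, Batf, Phlda1 and Map2k1 were named after their values were seen. Marker sums are given, without a set test, for keratinocytes, neutrophils, fibroblasts, endothelial cells, Langerhans cells, and monocytes and macrophages. Those of T cells, of pericytes and smooth muscle and of sweat glands are not given here. For likeness of pattern, the 3 genes with the highest Pearson correlation of deviations from group means were taken. As alternatives, the scaling was replaced by RLE factors or by library size only, the filter by filterByExpr, by at least 10 counts in every library or by at least 1 count, and the test by DESeq2 1.42.0. The 8 libraries compared were also fitted alone, the adjusted p was set at 0.05, the minimum fold change was dropped, and each library, or T108 and T100 together, were left out. The fits were tested on simulated data with known changes.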

Additional observations from a re-analysis of the deposited data

Results flagged for a closer look

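In the vehicle group of the I3C diet, library T108 was far from the other 3 libraries for 5 of the 10 genes, by the gap to its nearest neighbour relative to the range of the group. Fos stood at 7703 CPM in T108 and at 5009 to 5438 CPM in the others, and Jun at 5032 against 3033 to 3353 CPM. Egr1 stood at 5721 against 2856 to 3036 CPM, and Atf3 at 3513 against 1686 to 1828 CPM. For Fosl1 the values were 685.7 CPM in T108 and 228.4 to 270.7 CPM in the others. In the vehicle group of the AhR-poor diet, the Fosb share of the Fos family was 25.33% in T100 and 24.45% to 24.6% in the others. These are 6 of 68 groups of 4 libraries examined, and chance alone sets a library apart in about 1 of 20 independent groups. The 68 are not independent, since they share libraries and genes that moved together, and 5 of the 6 are T108. The count of 6 can therefore not be set against that rate. The part of the cell isolation, of the mouse and of the library preparation in the high values of T108 was not tested.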

How the results depend on the processing

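None of the 10 genes was called higher in any comparison under any alternative, and 1163 of 1190 values of single genes under the alternatives kept their direction and their side of the threshold. After papain on the I3C diet, 1 gene of the 10 (Egr2) was called with filterByExpr, with at least 10 counts in every library, with DESeq2 and at an adjusted p below 0.05. Of all genes, 1136 of 16253 were called lower there with filterByExpr and 836 of 13146 with at least 10 counts in every library. With DESeq2 1207 of 22155 were called lower, and at an adjusted p below 0.05 1552 of 22155. Without a minimum fold change 5 of the 10 were called on the I3C diet, against 12.9% of all genes lower. On the AhR-poor diet 1 was called (Fos), against 10.1%. Leaving out 1 library gave 0 to 2 of the 10 called on the I3C diet, Egr1 without T109, T110 or T111 and Egr2 without T110 or T100. All genes called lower there then numbered from 958 of 22017 (without T114) to 1332 of 21990 (without T106). On the AhR-poor diet, 2 of the 10 were past the adjusted p alone with DESeq2, with the 8 libraries alone and without T108 and T100. At an adjusted p below 0.05 there were 3, and without 1 library 1 to 3. On the I3C diet 9 of the 10 passed at an adjusted p below 0.05. The shares of all genes past the adjusted p alone under these settings are not given here.

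Some estimates close to 0 changed sign. The papain estimate of Fosl1 on the AhR-poor diet was 0.0504 without T108 and T100 and ran from -0.2756 to 0.0505 (without T100) when 1 library was left out. The vehicle diet estimate ran from -0.2484 to 0.0365 for Fosl2 and from -0.5112 to 0.1534 for Egr2, positive without T108. With papain, the diet estimate was 0.0468 for Fos and 0.0521 for Jun with library size only, and for Atf3 it was -0.0050 with every gene of at least 1 count and ran from -0.0555 to 0.0540 when 1 library was left out. The interaction ran from -0.0695 to 0.3386 for Fosb and from -0.0112 to 0.4588 for Egr1, lowest without T108.

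Counts over all genes moved more. Requiring at least 10 counts in every library gave 997 genes called after papain on the AhR-poor diet, 58 between diets with vehicle and 561 with papain. Without a minimum fold change, 4977 and 5685 genes were called after papain on the AhR-poor and the I3C diet, and 2482 between diets with papain. Between diets with vehicle, 601 were called with DESeq2, 587 at an adjusted p below 0.05, 97 without T108 and T100, and 194 (without T110) to 430 without 1 library. For the interaction the counts were 10 with library size only, 7 with at least 1 count, 205 with DESeq2, 63 at an adjusted p below 0.05, and 2 (without T108) to 95 (without T112) when 1 library was left out. Apart from the filters, which change the genes tested, the cause was not tested. No paired analysis was possible because no replicate code occurs in more than 1 group.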
